A study of Mus musculus with 12 samples.

Results

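Hepatocyte amino acid transporters are described here as 6 genes chosen by name: Slc38a2, Slc38a3, Slc38a4, Slc7a2, Slc43a1 and Slc16a10. All 6 were among the 28030 gene identifiers of the table, and all 6 passed the filter on low counts that left 12086 genes for testing. The RNA came from hepatocytes of 12-week-old wild-type female mice, in 4 groups of 3 libraries. In each lobule of the liver, pericentral hepatocytes (PC) surround the central vein and periportal hepatocytes (PP) surround the portal tract. Each kind was isolated with digitonin, a detergent that is used to lyse 1 zone of the lobule and leave the opposite zone intact. All mice ate normal chow and had been trained for 3 days to fast for 16 h overnight and to feed for 8 h in the daytime. Fed PC and fed PP hepatocytes came from mice that had eaten for 4 h, with 20% sucrose added to their water, when they were killed. Fasted PC and fasted PP hepatocytes came from mice killed 24 h after food and sucrose water were taken away, at the same time of day. The control state is therefore a refed state with sucrose, and the fasted mice had taken the same meal a day earlier. The questions were how far the level of each transporter differed between the zones, how far it differed between the states, and whether the fasting difference was of another size in PC than in PP.

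The liver takes up amino acids from portal blood and uses them for glucose, urea and plasma proteins, and these tasks are divided along the lobule. Periportal cells are known for urea synthesis and gluconeogenesis, and pericentral cells next to the vein for glutamine synthesis. Slc38a2 and Slc38a4 encode SNAT2 and SNAT4, sodium-coupled carriers of small neutral amino acids such as alanine (system A), of which SNAT2 is known to be induced by amino acid lack and by glucagon. Slc38a3 encodes SNAT3, which couples the movement of glutamine, histidine and asparagine to sodium and protons and can run in both directions (system N). Slc7a2 encodes CAT-2, a carrier of arginine, lysine and ornithine. Slc43a1 encodes LAT3 and Slc16a10 encodes TAT1, which let large neutral and aromatic amino acids, respectively, equilibrate across the membrane.

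Slc38a2 and Slc38a4 lie on 1 strand of chromosome 15 beside Slc38a1. On GRCm38, Slc38a2 spans chr15:96687392-96699730 and Slc38a4 spans chr15:96994820-97055956, both on the minus strand, with 295.0 kb between them. Of the genes in the table, only the pseudogene Gm8888, at 0 counts in every library, lies in that gap. Slc38a1 (chr15:96571418-96642913, minus strand), a system A gene best known from other tissues, lies 44.5 kb from Slc38a2. Slc16a10 spans chr10:40033532-40142258 on the minus strand, Slc38a3 spans chr9:107650634-107669530 on the minus strand, Slc7a2 spans chr8:40862396-40922308 on the plus strand and Slc43a1 spans chr2:84838850-84863594 on the plus strand. Exons of Slc7a2 share 635 bases with the antisense gene Gm26584, which the table does not list. The library kit does not mark strand, so reads of the pair in those bases cannot be told apart.

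The stretches of 250 bases before RefSeq transcription starts (GRCm38.p6) are shown for Slc38a2, Slc38a4 and Slc16a10, because Slc38a2 and Slc38a4 were higher after fasting and Slc16a10 differed between the zones. Letters are written 5′ to 3′ on the gene's own strand, and capitals mark the match to a searched motif where there was one. Slc38a2 is chr15:96699729-96699978, minus strand. Slc38a4 starts 1 and 2 are chr15:97055957-97056206 and chr15:97031214-97031463, both minus strand. Slc16a10 is chr10:40142255-40142504, minus strand.

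Slc38a2: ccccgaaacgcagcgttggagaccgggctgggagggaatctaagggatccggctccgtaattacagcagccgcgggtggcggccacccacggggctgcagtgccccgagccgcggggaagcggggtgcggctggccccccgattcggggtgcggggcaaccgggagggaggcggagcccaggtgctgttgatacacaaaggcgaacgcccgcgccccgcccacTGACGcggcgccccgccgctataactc
Slc38a4 start 1: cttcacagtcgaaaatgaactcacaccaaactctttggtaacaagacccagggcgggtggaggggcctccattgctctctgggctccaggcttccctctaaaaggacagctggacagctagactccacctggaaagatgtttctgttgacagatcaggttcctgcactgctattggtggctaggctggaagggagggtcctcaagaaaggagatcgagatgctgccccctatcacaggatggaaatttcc
Slc38a4 start 2: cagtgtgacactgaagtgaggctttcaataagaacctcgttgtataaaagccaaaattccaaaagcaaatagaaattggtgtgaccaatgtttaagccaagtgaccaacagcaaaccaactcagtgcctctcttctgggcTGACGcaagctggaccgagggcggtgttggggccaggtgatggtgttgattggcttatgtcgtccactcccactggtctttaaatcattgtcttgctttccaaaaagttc
Slc16a10: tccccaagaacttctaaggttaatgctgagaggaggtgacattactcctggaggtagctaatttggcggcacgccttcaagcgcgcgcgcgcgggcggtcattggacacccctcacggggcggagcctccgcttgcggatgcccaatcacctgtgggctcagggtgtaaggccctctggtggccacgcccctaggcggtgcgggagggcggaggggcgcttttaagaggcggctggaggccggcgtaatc

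The windows were searched on both strands for 5 motifs: the amino acid response element TGATGNAA, the cyclic AMP response element TGACGTCA, its short form TGACG, the forkhead site GTAAACA and the glucocorticoid receptor short motif AGAACA. The letters TGACG are contained in TGACGTCA, so a match to the longer motif would also count for the shorter one. Slc38a2 held TGACG with its first base 27 bases upstream of the start, in a window of 72.0% G and C. Slc38a4 held TGACG 110 bases upstream of its second start, and another Slc38a4 start, not printed, held TGTTCT, the reverse complement of AGAACA, 108 bases upstream. None of the 5 motifs was found in the first Slc38a4 window, in the Slc16a10 window or in the Slc43a1 window (chr2:84840073-84840322). Over all 32851 windows of this length, TGACG was in 17.8%, AGAACA in 16.1%, TGATGNAA in 3.45%, GTAAACA in 3.17% and TGACGTCA in 1.55%. A match is a description of letters and not a site in use. Bases outside these windows were not searched, so a missing match holds for the windows alone. The counts are per gene and do not show which start of Slc38a4 was used. Slc38a3 and Slc7a2 were not matched in the promoter table.

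Libraries held 16245846 to 27449412 estimated counts. The label of PC and PP was checked against lists of marker genes, of which the pericentral list had 14 of 15 genes in the table and the periportal list 15 of 15. Summed pericentral markers ran from 14570 to 26000 CPM in PC libraries and from 589.7 to 2266 CPM in PP libraries, where CPM is counts per 1000000 of library size scaled by trimmed means (TMM). Summed periportal markers were 5254 to 5741 CPM in fed PC and 13480 to 15630 CPM in fed PP, and 10250 to 14110 CPM in fasted PC and 22550 to 28190 CPM in fasted PP. This list holds Pck1, whose mean with fasting went from 127.9 to 4524 CPM in PC and from 798.0 to 8340 CPM in PP. The periportal sums therefore compare the zones within 1 state and not between states. Lists of 8 to 10 markers summed to 5.289 to 25.48 CPM for endothelial cells, 1.082 to 11.25 CPM for macrophages, 2.69 to 22.74 CPM for stellate cells, 13.96 to 48.83 CPM for bile duct cells and 0.3827 to 4.046 CPM for lymphocytes, against 96070 to 173900 CPM for 10 hepatocyte markers. Bile duct markers were higher in each PP library (35.11 to 48.83 CPM) than in any PC library (13.96 to 29.08 CPM), and no marker of any list was at 0 in every library. Single libraries stood apart from their group in markers of the zones. Fasted PC replicate 1 had 14570 CPM of pericentral markers against 22860 and 26000, and 13.08 CPM of Slc1a2, a glutamate carrier of the innermost pericentral cells, against 552.4 and 633.8 CPM. Its summed periportal markers were the highest of its group, at 14110 CPM against 10250 and 11190. Of that list, Hal was at 578.9 CPM against 69.88 and 108.6, and Gls2 at 385.6 CPM against 65.42 and 99.71. Pck1 of the same list went the other way, at 4382 CPM against 4672 and 4516. Fed PP replicate 1 had 2266 CPM of pericentral markers against 1216 and 1261. Fasted PP replicate 3 had fewer than its group, at 589.7 CPM against 1406 and 1632. Member values without fasted PC replicate 1 or fed PP replicate 1 are given beside the results that they moved most. In hepatocyte RNA, a change in which cells were collected and a change of RNA per cell cannot be told apart.

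Fasting raised 3 of the 6 transporters, and the size of the rise did not differ detectably between the zones. Slc7a2 rose 4.23-fold in PC and 4.8-fold in PP, and Slc38a2 rose 2.81-fold and 2.88-fold. Slc38a4 rose 1.9-fold in PP, while its change in PC missed the threshold. Slc38a3, Slc43a1 and Slc16a10 were not called for fasting in either zone. In PC, 2 of 6 members were called, both higher, where 21.4% of all tested genes were called, 11.1% as higher and 10.2% as lower. In PP, 3 of 6 were called, all higher, where 17.9% of all tested genes were called, 8.39% as higher and 9.51% as lower. The median log2 fold change of the members was 0.83 in PC and 0.94 in PP, beside medians over all tested genes of 0.0042 and 0.0049. The members were named with such results known, so these counts describe them and are not a test of the group. Calls are at an adjusted p under 0.05.

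**Figure D1:**
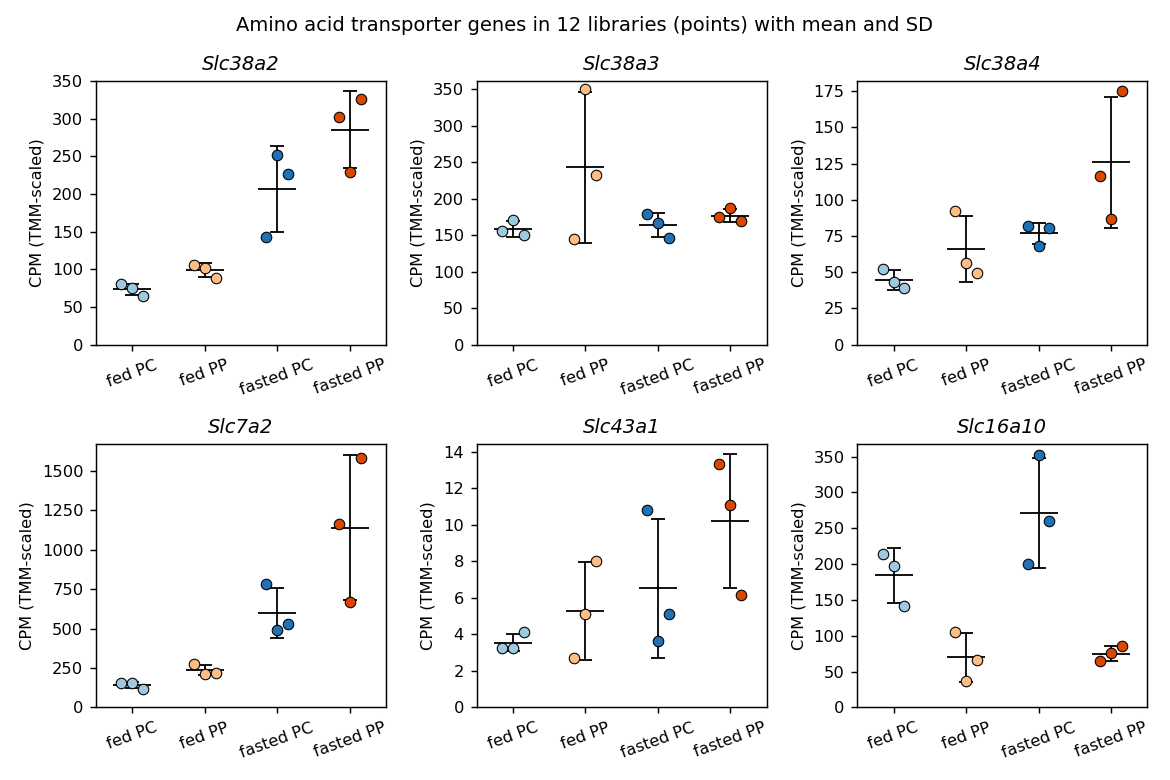
Level of each transporter gene in CPM (TMM-scaled, linear axis from 0) in the 12 libraries, with the mean and SD of 3 libraries per group. Slc7a2 and Slc38a2 stand higher in each fasted library than in any fed library, and Slc16a10 stands higher in each PC library than in any PP library.

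Slc7a2, the cationic carrier, was at 153.1, 155.3 and 117.7 CPM in fed PC (mean 142.0 ± 21.11 SD, n = 3) and at 781.7, 490.7 and 528.3 CPM in fasted PC (600.2 ± 158.3). In PP it was at 277.6, 214.3 and 220.7 CPM when fed (237.5 ± 34.87) and at 1166, 670.2 and 1586 CPM when fasted (1141 ± 458.6). In both zones the lowest fasted library was above the highest fed library. The log2 fold change was 2.08 ± 0.29 (SE) in PC (adjusted p = 0.000611) and 2.26 ± 0.29 in PP (adjusted p = 0.000524). It stayed called in all 19 alternative analyses in each zone, between 1.82 and 2.21 in PC and between 1.96 and 2.54 in PP. Without fasted PC replicate 1, the library with the highest PC level, the PC value was 1.82 (adjusted p = 0.00187). The 3 fasted PP libraries spread widely, the highest at 1586 CPM in replicate 3 and the lowest at 670.2 CPM in replicate 2. Replicate 3 also had the fewest pericentral markers of its group (589.7 CPM). Whether this bears on its Slc7a2 level was not tested.

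Slc38a2, the system A carrier SNAT2, was at 80.58, 74.73 and 65.34 CPM in fed PC (73.55 ± 7.685) and at 142.4, 252.4 and 226.2 CPM in fasted PC (207.0 ± 57.44). In PP it was at 105.9, 102.4 and 88.83 CPM when fed (99.05 ± 9.024) and at 301.9, 228.7 and 326.5 CPM when fasted (285.7 ± 50.87). Fed and fasted libraries did not overlap in either zone. The log2 fold change was 1.49 ± 0.20 in PC (adjusted p = 0.000349) and 1.53 ± 0.20 in PP (adjusted p = 0.000439), and it was called in all 19 alternatives in both. Fasted PC replicate 1 had the lowest of the fasted levels, the reverse of its place for Slc7a2, and without it the PC value was 1.68 (adjusted p = 0.000112).

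Slc38a4, the neighbour of Slc38a2 and the other system A carrier, was at 52.26, 43.07 and 38.99 CPM in fed PC (44.77 ± 6.798) and at 81.58, 68.13 and 80.53 CPM in fasted PC (76.75 ± 7.482). These PC libraries did not overlap, yet the difference of 0.78 ± 0.27 missed the threshold (adjusted p = 0.0638; 95% interval 0.18 to 1.37). It was called in 5 of 19 alternatives, among them DESeq2 (0.77, adjusted p = 0.0189) and a fit of only the fed and fasted PC libraries (0.76, adjusted p = 0.00529). In PP it was at 92.42, 56.41 and 49.82 CPM when fed (66.22 ± 22.93) and at 116.3, 86.47 and 175.1 CPM when fasted (125.9 ± 45.09). Here the lowest fasted library was under the highest fed one, and the difference of 0.93 ± 0.27 was called (adjusted p = 0.0353). The PP call was kept in 12 of 19 alternatives. It was lost without fed PP replicate 2 (0.83, adjusted p = 0.116), fed PP replicate 3 (0.76, adjusted p = 0.119), fasted PP replicate 1 (1.00, adjusted p = 0.0629), fasted PP replicate 3 (0.62, adjusted p = 0.11) or fed PC replicate 2 (0.93, adjusted p = 0.0516). It was also lost with no filter on low counts (0.93, adjusted p = 0.0839) and in a fit of only the PP libraries (0.94, adjusted p = 0.103). The PP difference was larger without fed PP replicate 1, at 1.26 (adjusted p = 0.00828).

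The glutamine carrier Slc38a3 was at 155.5, 170.3 and 149.7 CPM in fed PC (158.5 ± 10.64), 179.5, 167.0 and 146.3 CPM in fasted PC (164.3 ± 16.8) and 174.3, 187.5 and 169.2 CPM in fasted PP (177.0 ± 9.412). These 9 libraries lay within 146.3 to 187.5 CPM. In fed PP it was at 145.3, 350.7 and 232.6 CPM (242.9 ± 103.1), so that 2 of the 3 libraries lay above all others and replicate 1 lay below all others. The fasting difference was 0.05 ± 0.23 in PC (adjusted p = 0.901; 95% interval -0.46 to 0.56) and -0.46 ± 0.23 in PP (adjusted p = 0.203; 95% interval -0.96 to 0.05). The PC value, near 0, was -0.037 without fasted PC replicate 1 (adjusted p = 0.943). Without fed PP replicate 1, the library with the most pericentral markers of its group, the PP difference was -0.71 and was called (adjusted p = 0.0121). Whether the pericentral content of that library bears on its Slc38a3 level was not tested.

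Slc43a1, the LAT3 gene, rests on the fewest counts of the 6, at 2.686 to 13.34 CPM over the 12 libraries. It was at 3.269, 3.27 and 4.115 CPM in fed PC, and at 10.82, 3.611 and 5.099 CPM in fasted PC. In PP it was at 2.686, 5.115 and 8.009 CPM when fed and at 13.34, 11.07 and 6.155 CPM when fasted. Groups overlapped in both zones. The fasting difference was 0.88 ± 0.46 in PC (adjusted p = 0.202; 95% interval -0.13 to 1.90) and 0.96 ± 0.45 in PP (adjusted p = 0.171; 95% interval -0.03 to 1.95). Without fasted PC replicate 1, which had the highest PC level, the PC value was 0.28 (adjusted p = 0.684).

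Slc16a10, the aromatic amino acid carrier, was at 214.5, 197.1 and 141.4 CPM in fed PC (184.3 ± 38.19) and at 200.2, 352.0 and 260.4 CPM in fasted PC (270.9 ± 76.4). In PP it was at 105.7, 37.12 and 66.36 CPM when fed (69.72 ± 34.41) and at 64.1, 75.4 and 85.76 CPM when fasted (75.08 ± 10.84). Fed and fasted libraries overlapped in both zones. The fasting difference was 0.56 ± 0.33 in PC (adjusted p = 0.268; 95% interval -0.18 to 1.29) and 0.11 ± 0.33 in PP (adjusted p = 0.864; 95% interval -0.63 to 0.84). The PP value rests on single fed libraries: it was 0.55 without fed PP replicate 1 (adjusted p = 0.246) and -0.19 without fed PP replicate 2 (adjusted p = 0.716).

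Fed and fasted libraries failed to overlap for 3 of 6 members in PC, beside 41.7% of all tested genes, and for 2 of 6 in PP, beside 34.6%. The test of the difference between the zones in the fasting change (PC change minus PP change) called none of the 6 members (adjusted p = 0.997 for each), and 0 of them had an unadjusted p under 0.05 or a call by DESeq2. The estimates were -0.04 for Slc38a2, 0.51 for Slc38a3, -0.15 for Slc38a4, -0.19 for Slc7a2, -0.07 for Slc43a1 and 0.45 for Slc16a10. Leaving out 1 library turned the sign of each of these except that of Slc38a3. Slc38a2 was at 0.151 without fasted PC replicate 1 and also turned without fed PC replicate 1, fed PP replicate 3 or fasted PP replicate 3, and Slc38a4 (0.138) and Slc7a2 (0.105) turned without fasted PP replicate 3. Slc43a1 was at 0.221 without fed PP replicate 1 and turned too when fasted PP replicate 1, fasted PC replicate 2, fasted PC replicate 3 or fed PC replicate 3 was left out, and Slc16a10 was at -0.018 without fed PP replicate 1. Over all tested genes, edgeR called 0 (0%), with 465 at an unadjusted p under 0.05, and DESeq2 called 11, with 491 at an unadjusted p under 0.05. A miss here does not show that the zones respond alike: the 95% interval for Slc7a2 ran from -1.04 to 0.67 and that for Slc38a2 from -0.63 to 0.56.

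**Figure D2:**
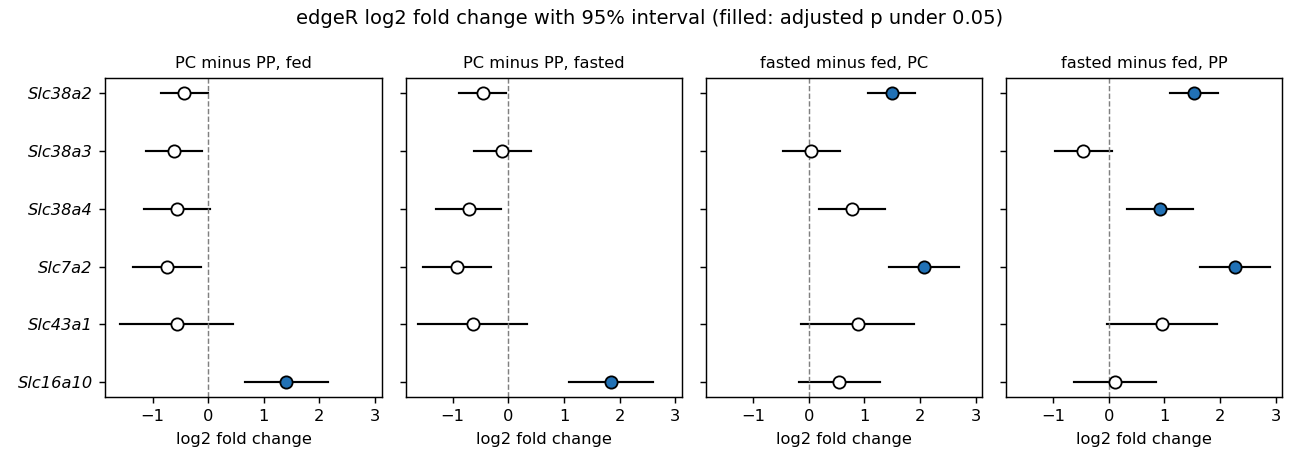
Log2 fold change (points) with 95% interval (lines) of each transporter in the 4 comparisons of 2 groups, filled where the adjusted p was under 0.05. Slc16a10 is the filled point in both zone panels, and Slc7a2 and Slc38a2 are filled in both fasting panels.

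Between the zones, Slc16a10 was higher in PC and the other 5 members had lower values in PC than in PP without passing the test. Slc16a10 was 2.64-fold higher in PC of fed mice and 3.61-fold higher in PC of fasted mice. It was the 1 member of 6 called in fed mice, where 4.72% of all tested genes were called, 2.24% as higher in PC and 2.47% as lower. It was again the 1 member of 6 called in fasted mice, where 6.40% were called, 3.35% as higher and 3.05% as lower. The median log2 difference of the 6 members was -0.565 in fed mice and -0.552 in fasted mice, beside -0.0144 and -0.0014 over all tested genes. The lowest fed PC library (141.4 CPM) was above the highest fed PP library (105.7 CPM), and the lowest fasted PC library (200.2 CPM) was above the highest fasted PP library (85.76 CPM).

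The Slc16a10 log2 difference, PC minus PP, was 1.40 ± 0.34 in fed mice (adjusted p = 0.0402; 95% interval 0.66 to 2.15) and 1.85 ± 0.34 in fasted mice (adjusted p = 0.00919; 95% interval 1.09 to 2.61). The fasted call was kept in all 19 alternatives. The fed call lay near the threshold and was kept in 7 of 19, with the same direction in all (1.12 to 1.85). It was lost without any one of fed PC replicates 1, 2 and 3, fed PP replicates 2 and 3, fasted PC replicate 3 and fasted PP replicates 1, 2 and 3, with adjusted p from 0.0513 to 0.125. It was also lost with no filter (adjusted p = 0.105) and in a fit of only the fed libraries (adjusted p = 0.104). Fed PP replicate 1, which had the most pericentral markers of the PP libraries, also had the highest Slc16a10 level of them, and without it the fed difference was 1.85 (adjusted p = 0.00828). Fasted PC replicate 1, which had the fewest pericentral markers of the PC libraries, had the lowest Slc16a10 level of its group, and without it the fasted difference was 2.02 (adjusted p = 0.00753). The part of the pericentral content in these levels was not tested.

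Slc7a2 had a log2 difference, PC minus PP, of -0.74 ± 0.28 in fed mice (adjusted p = 0.188; 95% interval -1.35 to -0.14), with no overlap between PC (117.7 to 155.3 CPM) and PP (214.3 to 277.6 CPM). In fasted mice it was -0.93 ± 0.28 (adjusted p = 0.0773), and fasted PC replicate 1, at 781.7 CPM, lay above fasted PP replicate 2, at 670.2 CPM. Without fasted PC replicate 1 the fasted difference was -1.17 (adjusted p = 0.0348), without fasted PP replicate 2 it was -1.20 (adjusted p = 0.00999), and DESeq2 called it with all libraries (-0.93, adjusted p = 0.00781). In fed mice a fit of only the fed libraries called it (-0.74, adjusted p = 0.0212). The value was below 0 in all 19 alternatives of both comparisons.

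The 3 members of the Slc38 family also had values below 0 in both states. For Slc38a2 the difference was -0.43 ± 0.19 in fed mice (adjusted p = 0.29) and -0.46 ± 0.19 in fasted mice (adjusted p = 0.205), the latter at -0.26 without fasted PC replicate 1 (adjusted p = 0.377). Its fed libraries did not overlap, at 65.34 to 80.58 CPM in PC and 88.83 to 105.9 CPM in PP. For Slc38a4 the difference was -0.56 ± 0.27 in fed mice (adjusted p = 0.33) and -0.71 ± 0.27 in fasted mice (adjusted p = 0.165), where PC (68.13 to 81.58 CPM) and PP (86.47 to 175.1 CPM) did not overlap. Its fed value was -0.23 without fed PP replicate 1 (adjusted p = 0.765). For Slc38a3 the difference was -0.62 ± 0.23 in fed mice (adjusted p = 0.191) and -0.11 ± 0.23 in fasted mice (adjusted p = 0.865; 95% interval -0.61 to 0.40). Without fed PP replicate 1 its fed value was -0.86 and was called (adjusted p = 0.0108), and without fasted PC replicate 1 its fasted value was -0.18 (adjusted p = 0.763). Slc43a1 had -0.57 ± 0.46 in fed mice (adjusted p = 0.626) and -0.64 ± 0.45 in fasted mice (adjusted p = 0.499), with overlapping groups. Its fed value was -0.87 without fed PP replicate 1 (adjusted p = 0.403), and its fasted value was -1.23 without fasted PC replicate 1 (adjusted p = 0.118). PC and PP failed to overlap for 3 of 6 members in fed mice, beside 26.0% of all tested genes, and for 2 of 6 in fasted mice, beside 22.0%.

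To compare levels between genes, counts were divided by exon length and scaled to a sum of 1000000 in each library. On this per-length scale Slc38a3 was the highest of the 6 in both fed groups and Slc7a2 in both fasted groups. In fed PC the order was Slc38a3 (75.96 ± 4.272), Slc16a10 (63.15 ± 11.51), Slc7a2 (39.23 ± 4.873), Slc38a4 (26.53 ± 3.397), Slc38a2 (21.02 ± 1.633) and Slc43a1 (1.576 ± 0.2633), with no overlap between neighbours. In fed PP it was Slc38a3 (107.0 ± 43.83), Slc7a2 (60.53 ± 8.362), Slc38a4 (36.06 ± 11.86), Slc38a2 (26.06 ± 1.536), Slc16a10 (22.1 ± 10.75) and Slc43a1 (2.171 ± 1.17), where Slc38a3 overlapped Slc7a2 and Slc38a2 overlapped Slc16a10. By mean, Slc16a10 thus lay above Slc7a2 in fed PC and below both system A genes in fed PP. In fed PP replicate 1, however, Slc16a10 (32.93) was above Slc38a2 (27.47).

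In fasted PC the per-length order was Slc7a2 (155.1 ± 36.15), Slc16a10 (87.95 ± 27.98), Slc38a3 (73.82 ± 7.469), Slc38a2 (55.89 ± 17.09), Slc38a4 (42.63 ± 2.792) and Slc43a1 (2.669 ± 1.481). Slc7a2 did not overlap Slc16a10, while the next 3 pairs of neighbours overlapped. In fasted PP it was Slc7a2 (269.7 ± 118.7), Slc38a3 (71.92 ± 4.814), Slc38a2 (69.45 ± 14.15), Slc38a4 (63.96 ± 25.99), Slc16a10 (22.01 ± 4.423) and Slc43a1 (3.772 ± 1.184), and the 3 Slc38 genes overlapped each other.

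**Figure D3:**
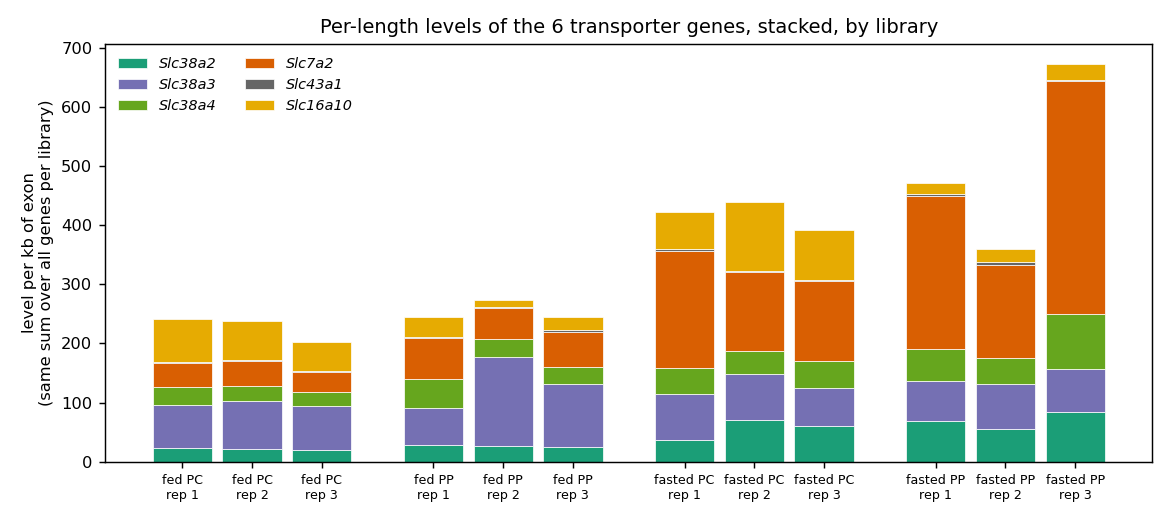
Per-length level of the 6 transporters (counts per kilobase of exon, scaled to the same sum in each library), stacked for each of the 12 libraries on a linear axis from 0. The stacks reach 203.0 to 273.9 in fed libraries and 358.9 to 672.6 in fasted ones, and the Slc7a2 segment is the largest in each fasted library.

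The summed per-length level of the 6 genes was 203.0 to 240.9 in fed PC and 243.9 to 273.9 in fed PP, and 391.2 to 439.8 in fasted PC and 358.9 to 672.6 in fasted PP. Slc7a2 made up 16.57% to 17.85% of the sum in fed PC and 19.44% to 28.55% in fed PP, against 30.11% to 46.51% in fasted PC and 43.87% to 58.57% in fasted PP. The fasted libraries thus held a larger share of Slc7a2 than any fed library. Within a library the per-length ratio of Slc7a2 to Slc38a3 was 0.52 ± 0.06 in fed PC and 0.67 ± 0.39 in fed PP, and 2.1 ± 0.41 in fasted PC and 3.78 ± 1.68 in fasted PP. The ratio of Slc16a10 to Slc7a2 was 1.6 ± 0.13 in fed PC, 0.35 ± 0.13 in fed PP, 0.61 ± 0.29 in fasted PC and 0.09 ± 0.04 in fasted PP. A ratio within a library shows that the genes changed unequally and not which one moved.

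Over the 12 libraries, Slc7a2, Slc38a2 and Slc38a4 varied together. The Pearson correlation of log2 CPM was 0.932 for Slc38a2 with Slc7a2, 0.918 for Slc38a4 with Slc7a2 and 0.846 for Slc38a2 with Slc38a4. Slc16a10 correlated at -0.106 with Slc7a2 and at -0.688 with Slc38a3. The highest and the lowest Slc38a3 level and the lowest Slc16a10 level were all in fed PP libraries. The libraries share groups, scaling and the table, so these values describe the same differences again and carry no test.

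Among 8118 tested genes that averaged 5 CPM or more, those most like each member were found by the same correlation. For Slc38a2 these were Zfp36l2 (0.979), an mRNA-binding protein that promotes decay, Slc25a25 (0.975), a mitochondrial ATP-Mg carrier, and Dtnbp1 (0.97). For Slc7a2 they were Dhx40 (0.971), Zfp36l2 (0.969) and Rad21 (0.967), a cohesin subunit, and for Slc38a4 they were Rhoc (0.962), Slc17a1 (0.95), a sodium phosphate carrier, and Dhx40 (0.933). Slc16a10 was most like Fam107b (0.965), St3gal6 (0.956), a sialyltransferase, and Pid1 (0.95). The highest values were lower for Slc43a1, with Aspdh (0.939), Sf3b1 (0.922) and Mum1 (0.911), and lowest for Slc38a3, with Fam3c (0.808), Gys2 (0.796), the liver glycogen synthase, and Gng12 (0.795).

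Of 41 other amino acid transporters of the cell surface, 15 passed the filter, and the other 26 did not exceed 0.957 CPM in any library. The list includes relatives that do the same work as members in other tissues. Slc7a1, the widespread cationic carrier, had per-length group means of 0.1983 to 0.2522, beside 39.23 to 269.7 for Slc7a2. In CPM, the group means of Slc38a1 were 0.6199 to 1.062 and those of Slc43a2, the LAT4 gene, were 0.8749 to 2.181. Slc7a5, the LAT1 gene, had group means of 2.291 to 5.023 CPM, while its partner chain Slc3a2 had 40.2 to 48.29 CPM and the taurine carrier Slc6a6 112.4 to 146.4 CPM. None of these 6 was called in any comparison. Slc7a7 and Slc7a8 were below the filter.

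Fasting called 1 of the 15 in PC and 0 of the 15 in PP, beside 21.4% and 17.9% of all tested genes. The 1 was Slc1a4, the ASCT1 carrier of alanine, serine and cysteine, at 13.39, 17.95 and 24.0 CPM in fed PC and 2.421, 4.875 and 5.376 CPM in fasted PC. It fell by 2.13 on the log2 scale (adjusted p = 0.00302), the direction opposite to the called members. In PP, the count was 0 by edgeR, also at an unadjusted p under 0.05, and 0 by DESeq2, and leaving out fasted PC replicate 1 gave 1. The median fasting difference of the 15 was -0.24 in PC and -0.03 in PP.

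The zones called 6 of the 15 in fed mice and 6 in fasted mice, 4 higher and 2 lower in PC each time. Over all tested genes, 4.72% were called in fed mice and 6.40% in fasted mice. Slc1a2, Slc1a4, Slc1a5 and Slc38a11 were higher in PC in both, as Slc16a10 was. In fed mice the log2 differences were 6.58 for Slc1a2, 3.17 for Slc1a4, 2.35 for Slc38a11 and 2.34 for Slc1a5, all larger than the 1.40 of Slc16a10. Levels were low for Slc38a11 (fed PC mean 1.156 CPM, fed PP 0.2234) and Slc1a5 (5.785 and 1.139), beside 184.3 and 69.72 CPM for Slc16a10. Slc3a1, the partner chain of the cystine carrier, was lower in PC, at -3.25 in fed mice (adjusted p = 0.000725) and -3.49 in fasted mice (adjusted p = 0.000563), and Slc6a13, a GABA and taurine carrier, was lower at -0.44 (adjusted p = 0.0455) and -0.61 (adjusted p = 0.0068). Leaving out 1 library brought the count to 2 at the lowest in fed mice, without fed PP replicate 2, and to 3 in fasted mice, without fasted PC replicate 2.

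**Figure D4:**
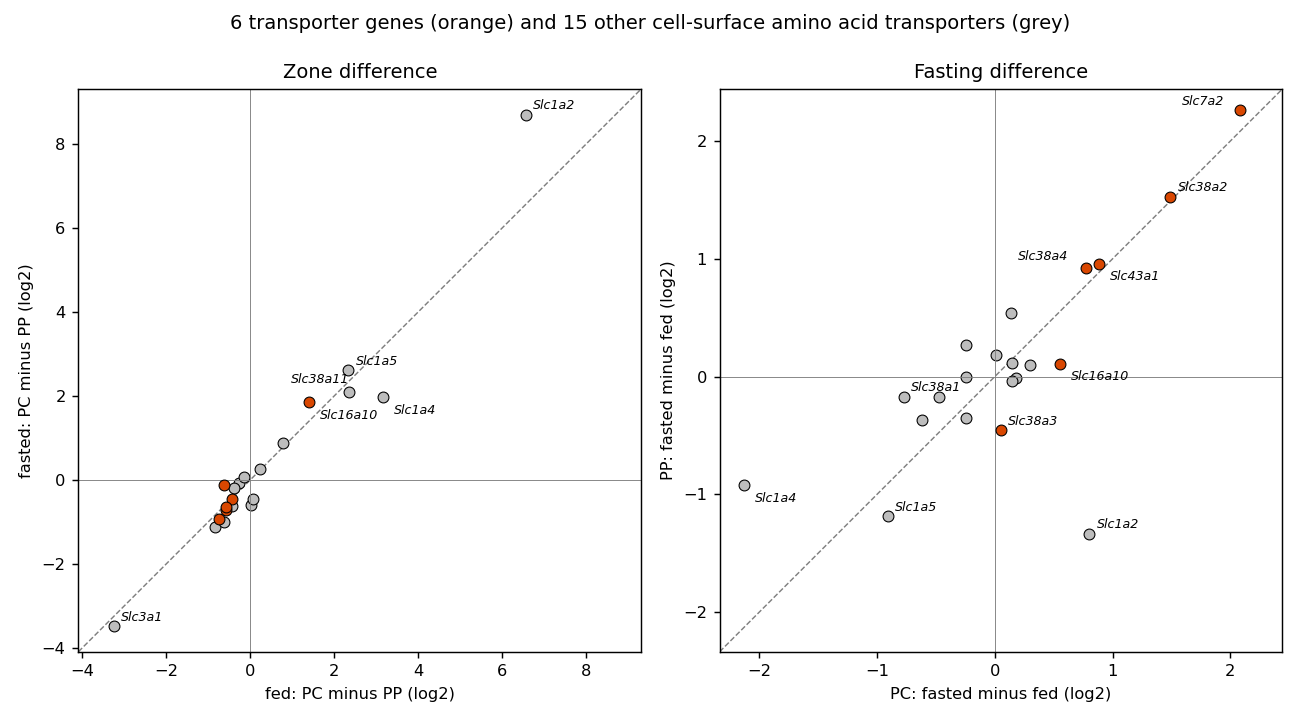
Log2 differences of the 6 transporters (orange) and 15 other cell-surface amino acid transporters (grey): left, PC minus PP in fasted against fed mice, and right, fasted minus fed in PP against PC, with a dashed line of equal values. Slc7a2 and Slc38a2 lie farthest up the dashed line at right, and Slc1a2 and Slc3a1 lie farthest from 0 at left.

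Transporters of inner membranes and the enzymes that use the carried amino acids were counted in the same fits. Over all tested genes, fasting called 21.4% in PC and 17.9% in PP. The zones called 4.72% of them in fed mice and 6.40% in fasted mice. Of 11 tested carriers of lysosomes and other inner membranes, fasting raised 2 and lowered 3 in PC and raised 2 and lowered 2 in PP, with 0 called between the zones in either state by edgeR or DESeq2 (1 had an unadjusted p under 0.05, in fasted mice). Slc15a4, a lysosomal histidine and peptide carrier, rose by 1.24 in PC and 0.70 in PP on the log2 scale, and Mfsd12, needed for cysteine import into lysosomes, had -0.96 and -1.18. Of 11 tested mitochondrial carriers, fasting raised 2 and lowered 1 in each zone. The 1 lowered was Slc25a44, the carrier of branched-chain amino acids, with -1.99 in PC (adjusted p = 4e-05) and -1.52 in PP (adjusted p = 0.000227).

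Of 39 enzymes that break down the carried amino acids, 7 rose and 0 fell with fasting in each zone by edgeR, with medians of 0.08 in PC and 0.28 in PP. The share called in either direction lay near that over all tested genes, 21.4% in PC and 17.9% in PP. As higher alone, 11.1% of all tested genes were called in PC and 8.39% in PP, each below the share of the enzymes. The list also holds Glul, which makes glutamine. In the falling direction, 2 in PC and 0 in PP had an unadjusted p under 0.05, and DESeq2 called 2 and 0. Sds, serine dehydratase, rose by 2.83 in PC and 1.99 in PP, and Got1, cytosolic aspartate aminotransferase, by 1.85 and 1.77. Arg1, the arginase that splits arginine, a substrate of CAT-2, rose by 0.83 in PC (adjusted p = 0.00762) and 0.85 in PP (adjusted p = 0.00823). Of 8 urea cycle genes, 1 rose in PC and 2 rose in PP. Of the aromatic pathway, Tdo2, which opens the tryptophan ring, rose by 0.79 in PC (adjusted p = 0.00388) and 1.06 in PP (adjusted p = 0.00091), and Tat, tyrosine aminotransferase, rose by 1.18 in PC (adjusted p = 0.0337). Between the zones, Hpd, of tyrosine breakdown, was higher in PC of fed mice by 0.74 (adjusted p = 0.0104) and was not called in fasted mice. Kynu, of tryptophan breakdown, went the other way in fasted mice (-0.40, adjusted p = 0.0456) and was not called in fed mice.

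Lists of genes known to respond to ATF4, the factor induced by amino acid lack, and to fasting hormones were set beside the rise of Slc38a2 and Slc7a2. Of 20 ATF4 targets, 4 rose in PC and 3 in PP, with medians of -0.11 and 0.10. These shares called lay near the 21.4% and 17.9% of all tested genes called, of which 11.1% and 8.39% were called as higher. By edgeR 0 fell, with 2 in PC and 1 in PP at an unadjusted p under 0.05 in that direction and 0 called by DESeq2. The 4 that rose in PC were Chac1 (2.95), Trib3 (2.21), Sesn2 (1.29) and Cebpb (0.91). Of 18 genes of the fasting hormone response, 12 rose and 3 fell in each zone, with medians of 1.24 and 1.36. Pck1, the gluconeogenic PEP carboxykinase, rose by 5.14 in PC and 3.39 in PP, and Fasn, fatty acid synthase, which insulin raises, had -5.12 and -4.26. Any link of these genes to the transporters was not tested.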

How the data were processed

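Total RNA of PC and PP hepatocytes was sequenced from NEBNext Ultra libraries, per the labels' protocols. Replicates are biological per the labels. A p-value reflects how far replicate libraries spread within all 4 groups, which share 1 estimate, and not within the compared groups alone. The authors deposited 1 table of estimated counts per gene, 28.0% to 32.8% of which are not whole numbers in a library. The submitters' processing notes name kallisto 0.46.0 and mm10. How transcripts were summed to genes is not given in the sources used here, so the isoforms of Slc7a2 cannot be separated. Of 28030 identifiers, 27645 were found in GENCODE M21 (GRCm38), which gave symbols, positions and exon lengths. Values were rounded to whole counts, which moved a library total by at most 85.8.

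All 12 libraries entered 1 model with a mean per group in edgeR 4.0.16 under R 4.3.3 (filterByExpr, TMM, robust quasi-likelihood, 8 residual degrees of freedom, common biological coefficient of variation 0.2055). P-values were Benjamini-Hochberg adjusted over 12086 genes, and a gene was called under 0.05. The fit was tested on simulated data. Levels are TMM-scaled CPM, as mean ± SD, n = 3. Per-length levels divide the estimated counts by merged exon length. Pairs of libraries of 1 group had chi-square values per degree of freedom of 25.1 to 79.0, so none agreed within sampling noise. Alternatives were DESeq2 1.42.0, other scalings (relative log expression, upper quartile), no filter, no robust step, a replicate block, only the groups compared, and leaving out each library.

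The members and gene lists were chosen with earlier results of these data known. Of 245 list symbols, 244 were found in the table. Named genes are the 6 members, a fixed set of their relatives, up to 3 called genes per direction and comparison of each list with the largest change, and the 3 genes most correlated with each member over log2 CPM. Slc1a5, Cebpb, Kynu, Arg1 as a member of the enzyme list, Pqlc1 and Pqlc2 are named beside these after their values were seen.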

Additional observations from a re-analysis of the deposited data

How the results depend on the processing

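The 30 log2 fold changes of the members were recomputed under up to 19 alternatives each, and 519 of these values kept their direction and their side of the threshold, 11 newly passed it, 19 lost the call and 15 reversed. All 15 reversed values belong to results that passed no threshold. Slc38a3 for fasting in PC was at -0.000123 with upper-quartile scaling. The other 14 came from leaving out 1 library, which gave -0.037 to 0.113 for Slc38a3 for fasting in PC, -0.186 to 0.55 for Slc16a10 for fasting in PP and, for the difference between the zones' fasting changes, -0.202 to 0.151 for Slc38a2, -0.499 to 0.138 for Slc38a4, -0.48 to 0.105 for Slc7a2, -0.676 to 0.221 for Slc43a1 and -0.018 to 0.718 for Slc16a10. Called members for the zone in fed mice went from 1 to 0 with no filter on low counts, and for the zone in fasted mice from 1 to 2 with DESeq2. Other transporters called for the zone in fasted mice went from 6 to 3 with only the groups compared. Over all genes, DESeq2 called 929 in place of 570 for the zone in fed mice and 11 in place of 0 for the interaction, no filter called 1 for the interaction, and a fit of only the fasted libraries called 376 in place of 774. Leaving out 1 library gave, for the zone in fed mice, the zone in fasted mice, fasting in PC, fasting in PP and the interaction in that order, 0 to 2, 1 to 2, 2 to 3, 2 to 4 and 0 to 0 members, 2 to 6, 3 to 6, 1 to 2, 0 to 1 and 0 to 1 other transporters, and 292 to 700, 387 to 1003, 1593 to 2615, 1405 to 2415 and 0 to 2 genes. The causes were not tested. Other scalings moved the median of all genes by at most 0.052 on the log2 scale. Of 96 recomputed group means, 95 moved by less than 1 SD; Slc38a3 in fasted PP was at 167.1 CPM on total counts.

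With the replicate number as a replicate block, the zone in fed mice called 0 members in place of 1: Slc16a10 was at 1.42 (adjusted p = 0.0846). The labels do not say that a number marks 1 mouse or batch. Of 18 pairs of same-numbered libraries, 3 correlated above 0.1 in their deviations from the group mean (-0.115 to 0.269). All 3 set PC against PP of 1 state, the only kind of pair that could share a mouse. Such pairs were at 0.269, 0.024 and 0.151 in fed mice and at 0.193, -0.115 and 0.094 in fasted mice. Pairs of unlike number were not computed. Whether the numbers pair the libraries was therefore not settled, and the main fit used no block. Slc43a1, at 2.686 to 13.34 CPM, is the member whose depth limits it most.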

Other observations

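Enzymes and mitochondrial carriers that act after uptake were also compared between the zones. Over all tested genes, the zones called 4.72% in fed mice and 6.40% in fasted mice. Of 39 enzymes that break down the carried amino acids, 3 were higher and 7 lower in PC of fed mice, and 3 higher and 10 lower in PC of fasted mice. Differences, PC minus PP on the log2 scale, included those of Oat, ornithine aminotransferase, at 6.13 in fed mice (adjusted p = 0.000744) and 6.42 in fasted mice (adjusted p = 0.00074), and Sds, serine dehydratase, at -4.85 (adjusted p = 0.00339) and -4.01 (adjusted p = 0.00608). Glul, glutamine synthetase, which is on the list but makes glutamine, was called higher in PC of fasted mice at 4.46 (adjusted p = 0.0234). In fed mice the Glul difference was 3.71 and just missed the threshold (adjusted p = 0.0517), with no overlap between PC and PP. Fasted PC replicate 1 had 172.0 CPM of Glul against 3639 and 2353 in its group. Sdsl, a relative of Sds, had -3.48 and -3.39, and Gldc, of glycine cleavage, had -2.29 and -2.38, and Sdsl and Gldc were called in both states. Of 11 mitochondrial carriers, 2 were lower in PC of fed mice and 3 in fasted mice. Sfxn1, a serine carrier, had -2.45 (adjusted p = 0.0111) and -1.88 (adjusted p = 0.0313), and Slc25a12, an aspartate and glutamate carrier, had -0.64 (adjusted p = 0.036) and -0.73 (adjusted p = 0.0163). Slc25a29, a carrier of basic amino acids, was called in fasted mice (-1.36, adjusted p = 0.0317).

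Markers of cell dissociation (12 genes) summed to 239.9 to 594.7 CPM over the 12 libraries. Red cell markers ran from 5.099 to 440.7 CPM, the highest in fasted PC replicate 2. Pqlc1, a cationic amino acid carrier relative of inner membranes, had -0.79 with fasting in PC (adjusted p = 0.000583) and -0.72 in PP (adjusted p = 0.0013). Pqlc2, the lysosomal carrier of arginine and lysine, had 0.60 (adjusted p = 0.00573) and 0.64 (adjusted p = 0.00457), the direction of Slc7a2.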
